A study of Homo sapiens with 27 samples.

Results

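The genes examined here are targets of the Ewing sarcoma fusion protein: NR0B1, NKX2-2, STEAP1, CD99, PRKCB, CCND1, GLI1, LIPI, PPP1R1A and EZH2. They were chosen by gene symbol, and every transcript with one of these 10 symbols in the GENCODE 44 annotation was taken as a member. Of 94 annotated transcripts, 51 had a count in at least 1 library, among 93530 transcript identifiers with a count in all, and 9 of the 10 genes were represented. The libraries were 6 of the 27 samples of the series, all from RM82, a cell line grown from an Ewing sarcoma, a tumour of bone and soft tissue in young people. In 3 libraries the cells had been treated for 24 h with SGC-CLK-1, a small-molecule inhibitor of CDC-like kinases. These enzymes modify SR proteins and thereby splicing. In the other 3 libraries they had received the solvent DMSO. The dose is not given in the sources used here, and all libraries came from this single line. Values are counts of unique molecular identifiers (UMIs) per transcript, and a library held between 362826 and 666702 of them, so that 1 count was worth between 1.5 and 2.76 CPM (counts per 1000000 counts of the library).

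Ewing sarcoma cells carry a fusion of EWSR1, an RNA-binding protein of the FET family, with the DNA-binding part of an ETS transcription factor, most often FLI1 and in some tumours ERG. RM82 is known as a line with the ERG fusion. The fusion protein binds the ETS core motif GGAA, and where that motif is repeated head to tail it can turn a silent stretch of DNA into an enhancer. NR0B1 and LIPI are known for such repeats near their starts, while other targets are bound through distant enhancers or act further downstream. Because CDC-like kinases act on splicing, the comparison with DMSO asks both whether the level of each target differed and whether its transcripts were used in different proportions.

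The repeats beside the 2 members that had one within 5 kilobases of the gene start are shown because they are the element through which the fusion is known to act. Both were read from the hg38 genome on the minus strand, 5′ to 3′, with each GGAA in capitals. The NR0B1 stretch, at chrX:30310710-30310859, holds 26 GGAA motifs in 150 bases and its centre lies 1394 bases upstream of the annotated gene start. The LIPI stretch, at chr21:14213262-14213365, holds 11 consecutive motifs centred 2358 bases upstream. Neither overlaps a gene in GENCODE 44.
NR0B1 repeat: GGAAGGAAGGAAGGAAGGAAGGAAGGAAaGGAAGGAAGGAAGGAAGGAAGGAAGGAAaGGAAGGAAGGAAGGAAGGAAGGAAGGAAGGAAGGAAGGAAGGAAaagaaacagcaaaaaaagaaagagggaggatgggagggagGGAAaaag
LIPI repeat: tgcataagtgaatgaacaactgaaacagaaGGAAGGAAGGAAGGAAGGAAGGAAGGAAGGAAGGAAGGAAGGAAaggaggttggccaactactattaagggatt

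A search of both strands for at least 4 consecutive copies of GGAA (TTCC on the other strand) found a run within 50 kilobases of the gene start for 8 of the 10 genes, all but GLI1 and STEAP1. The same was true of 33.4% of 20033 protein-coding genes. Within 5 kilobases, 2 of the 10 genes had a run, against 3.61% of protein-coding genes. Farther out, the longest run near CCND1 had 15 copies and lay 18972 bases upstream, and that near PPP1R1A had 14 copies at 36338 bases upstream. The longest run near EZH2 had 13 copies at 45240 bases downstream of the annotated start, inside the gene. These matches describe the reference genome, and binding was not measured here.

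The members fell into 4 genes with enough counts for a test and 6 that were too low to judge. The filter on low counts asked for 15 counts in all and, in enough libraries, the CPM of 10 counts in a median-sized library. CCND1, CD99, STEAP1 and EZH2 passed it. PRKCB, LIPI, NR0B1, GLI1, PPP1R1A and NKX2-2 did not. On the scale of CPM per kilobase of transcript, summed over each gene's transcripts, the mean level was 178.8 for CCND1 (39.2 SD, n = 6), 116.2 for CD99 (33.2 SD), 77.4 for STEAP1 (16.4 SD) and 63.3 for EZH2 (8.4 SD). It was 11.4 for PRKCB (3.29 SD), 7.79 for LIPI (7.05 SD), 5.64 for NR0B1 (3.46 SD), 2.35 for GLI1 (3.13 SD), 0.137 for PPP1R1A (0.335 SD) and 0 for NKX2-2. Each of the 4 highest genes overlapped its neighbour in this order over the 6 libraries, but the lowest EZH2 library, at 51.0, lay well above the highest PRKCB library, at 17.4. From PRKCB down, neighbours again overlapped. Without the division by length, mean CPM was 550.3 for CCND1, 152.6 for EZH2, 125.7 for CD99 and 83.8 for STEAP1. On that scale EZH2 thus stood above CD99 and STEAP1, while the order of the 6 lower genes stayed the same. The rank of EZH2 therefore depends on the scale. A molecule could be counted on several transcripts of a gene, as described below, so these sums are upper values. The order of CD99 and STEAP1 turned when the most abundant transcript was taken alone, at 176 counts on 1219 bases for STEAP1 and 101 counts on 1129 bases for CD99. So did that of the lower genes, with NR0B1 (17 counts on 1813 bases) above LIPI (11 on 1511) and PRKCB (37 on 8010).

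**Figure D1:**
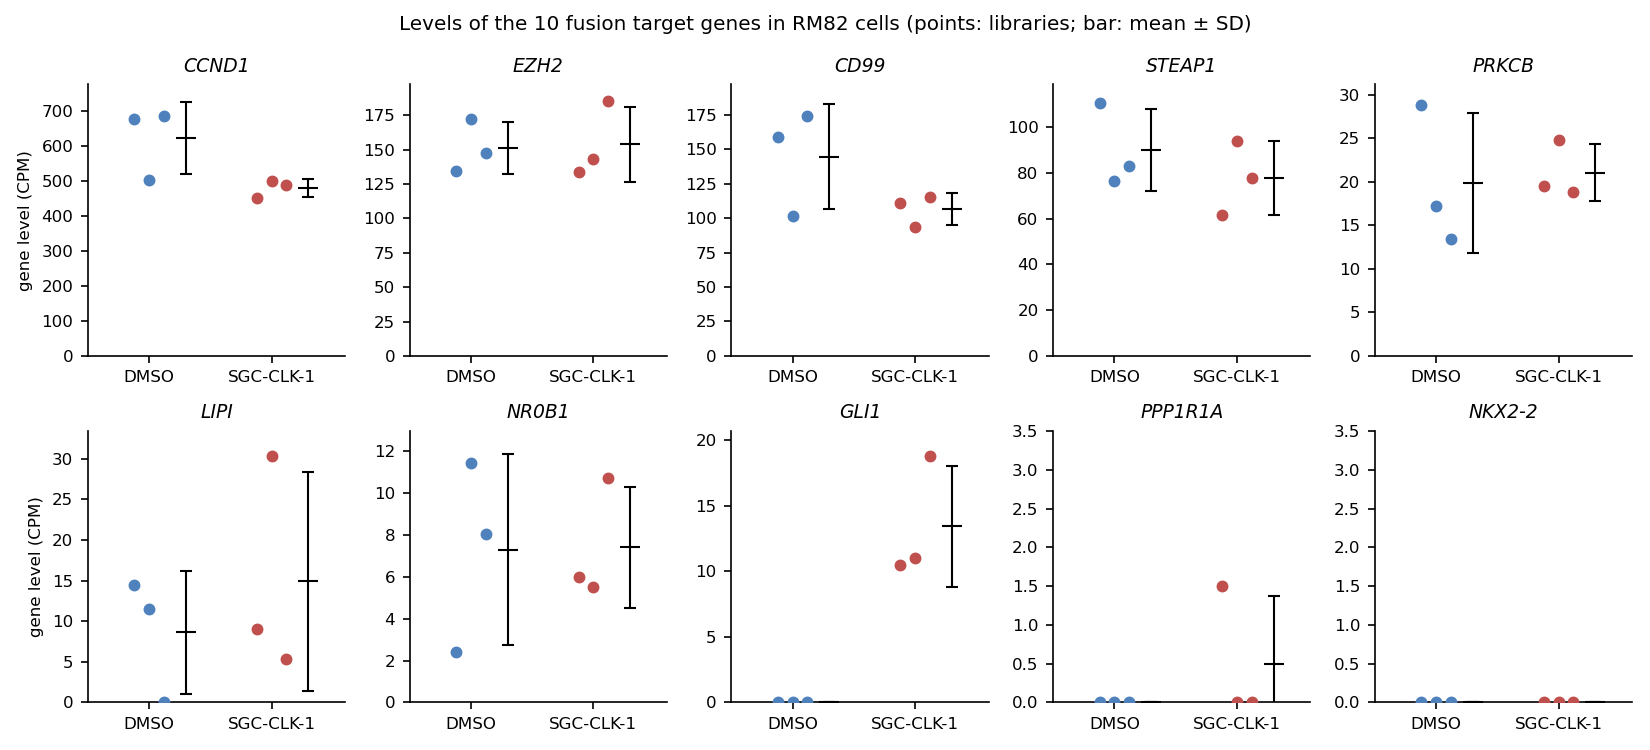
Gene level in CPM (vertical axis, from 0, with its own scale in each panel) of the 10 genes in the 3 DMSO and 3 SGC-CLK-1 libraries, each point a library and each bar a mean ± SD (n = 3). CCND1 is the only tested gene whose groups do not overlap (451.5 to 498.9 CPM against 502.4 to 683.9 CPM), and the lower row runs on a few counts per library.

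None of the 4 tested genes passed the threshold of the gene comparison (edgeR quasi-likelihood test, adjusted p under 0.05), in which 15 of 6344 genes did (0.236%), 7 higher and 8 lower with SGC-CLK-1. All 4 log2 fold changes were negative, with a median of -0.38 beside -0.0012 over all genes tested, and the sign of EZH2 turned with the scaling. The paper states in general that experiments were done as independent repeats, but the labels do not say which libraries came from separate cultures, and p-values measure the spread between these libraries. With a p under 0.05 before adjustment there was 1 of the 4, CCND1, where 13.9% of all genes had one, and the DESeq2 Wald test called none of the 4.

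CCND1 encodes cyclin D1, the partner of CDK4 and CDK6 that drives cells from G1 towards S phase. In the order of replicates 1 to 3, it had 301, 181 and 182 counts with SGC-CLK-1 and 282, 263 and 255 with DMSO, which correspond to 451.5, 498.9 and 487.9 CPM against 677.3, 502.4 and 683.9 CPM. All SGC-CLK-1 libraries lay below all DMSO libraries, although DMSO replicate 2 was only just above the highest of them. The groups of 19.7% of all genes tested did not overlap either, so that this separation was common in the data. The log2 fold change was -0.45 (0.20 SE, 95% interval -0.87 to -0.03), with an unadjusted p of 0.037 and an adjusted p of 0.323, which does not pass. In bulk libraries, fewer cells of a kind and less RNA per cell cannot be told apart.

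CD99 encodes a surface glycoprotein that pathologists stain to recognise Ewing sarcoma. It had 74, 34 and 43 counts with SGC-CLK-1 and 66, 53 and 65 with DMSO, or 111.0, 93.7 and 115.3 CPM against 158.5, 101.3 and 174.3 CPM. DMSO replicate 2 fell among the treated libraries, while the other DMSO libraries lay above all of them. The log2 fold change was -0.50 (95% interval -1.09 to 0.09, adjusted p = 0.448), an interval that includes 0. It was -0.32 without DMSO replicate 3, -0.72 without DMSO replicate 2 and -0.27 with the most abundant transcript alone.

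STEAP1, a membrane protein of the metalloreductase family and a therapeutic target in this tumour, had 41, 34 and 29 counts with SGC-CLK-1 and 46, 40 and 31 with DMSO. These were 61.5, 93.7 and 77.8 CPM against 110.5, 76.4 and 83.1 CPM, and the groups overlapped. Its log2 fold change was -0.30 (95% interval -0.93 to 0.33, adjusted p = 0.716), and it was -0.157 without SGC-CLK-1 replicate 1 as well as without DMSO replicate 1.

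EZH2, the methyltransferase of Polycomb repressive complex 2 (PRC2), had 89, 52 and 69 counts with SGC-CLK-1 and 56, 90 and 55 with DMSO. In CPM these were 133.5, 143.3 and 185.0 against 134.5, 171.9 and 147.5, and the groups overlapped. The log2 fold change was -0.06 (95% interval -0.58 to 0.45, adjusted p = 0.940), and with scaling by library size only it was 0.01. Taking the most abundant transcript in place of the sum gave -0.34.

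**Figure D2:**
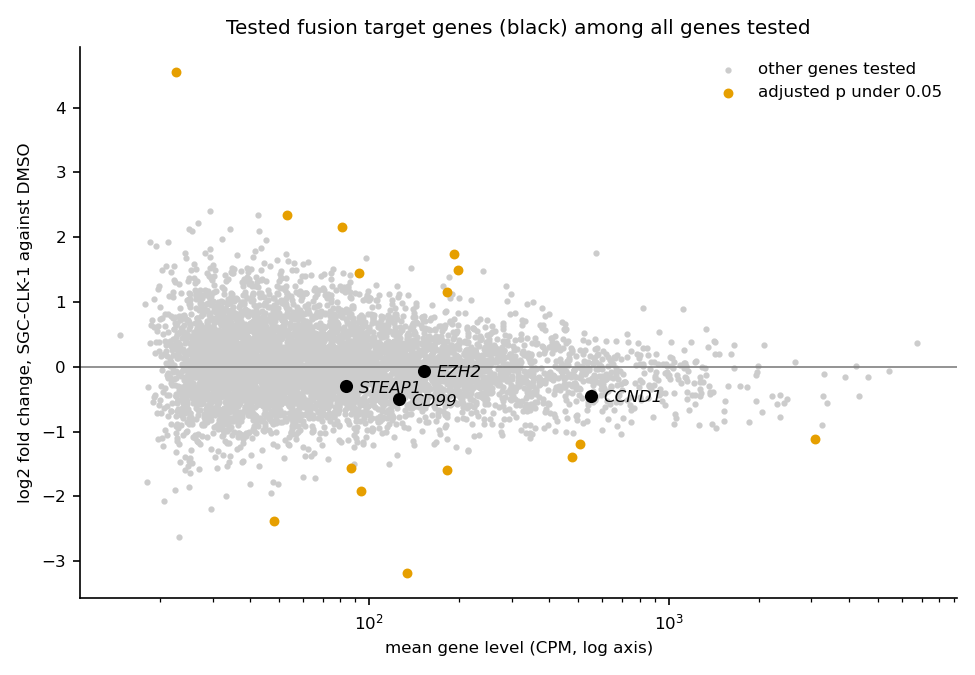
Log2 fold change of SGC-CLK-1 against DMSO (vertical axis) by mean level in CPM (horizontal log axis) for the 6344 genes tested, with the 15 genes past an adjusted p of 0.05 in orange and the 4 tested target genes in black. The black points lie between -0.50 and -0.06, inside the grey cloud of genes at similar levels.

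At the level of transcripts, 8 belonging to these 4 genes passed the filter on low counts and none was called, where 310 of 7840 transcripts were (3.95%). None of the 8 had an unadjusted p under 0.05, against 18% of all transcripts tested. The log2 fold changes of the 8 lay between -0.36 and 0.02, with 7 of them negative. The DESeq2 Wald test gave an adjusted p to 2 of the 8, ENST00000227507 of CCND1 and ENST00000297205 of STEAP1, and called neither. The other 6 got none, and the unadjusted p of each of the 8 was above 0.05.

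**Figure D3:**
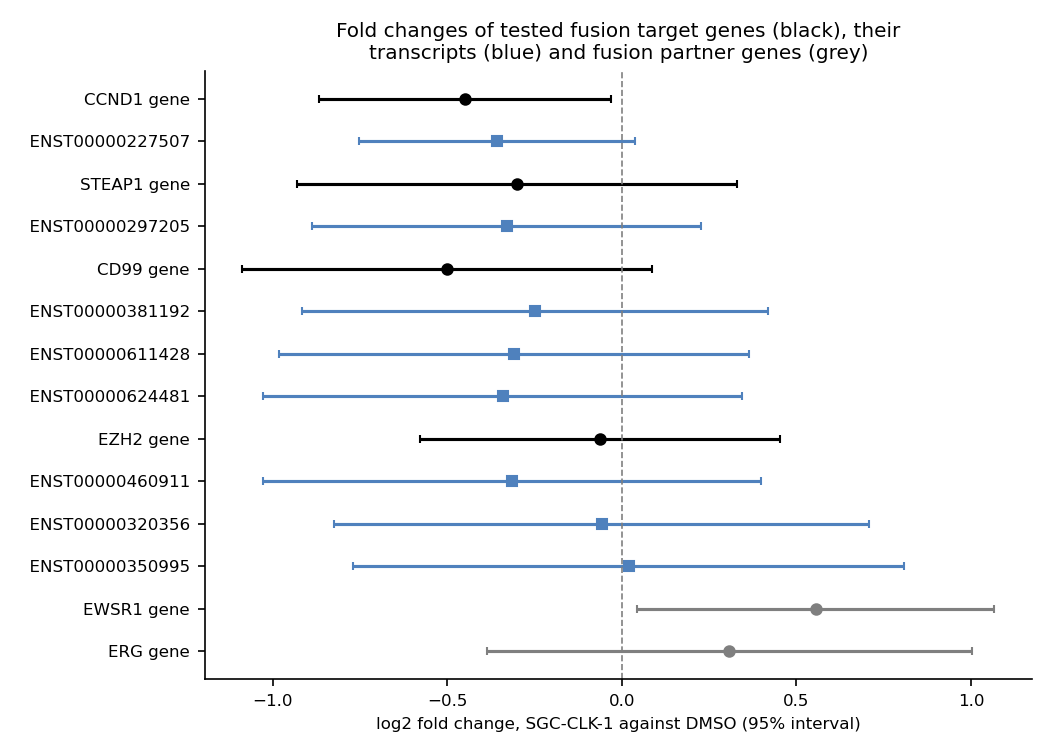
Log2 fold change with its 95% interval (horizontal axis) for the 4 tested target genes (black circles), their 8 tested transcripts (blue squares) and the partner genes EWSR1 and ERG (grey circles). The intervals of CCND1 as a gene and of EWSR1 leave out 0, and all others include it.

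Which transcripts carried the counts differed strongly from gene to gene. For CCND1 a single transcript, ENST00000227507 (5 exons, chr11:69641156-69654474, plus strand), held 93.4% of all counts. It had 286, 174 and 162 counts with SGC-CLK-1 and 268, 245 and 232 with DMSO, and a log2 fold change of -0.36 (95% interval -0.75 to 0.04, adjusted p = 0.339). Its share of the gene was 95.02%, 96.1% and 89.0% with SGC-CLK-1 and 95.04%, 93.2% and 91.0% with DMSO. The mean shares, 93.4% ± 3.8 and 93.1% ± 2.0 (SD, n = 3 each), differed by less than their spread (exact permutation test, two-sided, p = 1). Transcripts annotated as retaining an intron, 4 in number, made up 5.84% ± 3.04 of the CCND1 counts with SGC-CLK-1 and 6.06% ± 1.79 with DMSO.

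STEAP1 likewise rested on 1 coding transcript, ENST00000297205 (5 exons, chr7:90154469-90164827, plus strand), with 32, 27 and 21 counts with SGC-CLK-1 and 36, 32 and 28 with DMSO. Its log2 fold change was -0.33 (95% interval -0.89 to 0.23, adjusted p = 0.570), and -0.154 without SGC-CLK-1 replicate 1. Its share was 76.6% ± 3.7 with SGC-CLK-1 and 82.9% ± 6.5 with DMSO (exact permutation test, two-sided, p = 0.2), and the difference of -6.24 percentage points became -2.51 without DMSO replicate 3. The remaining counts fell on ENST00000412573, annotated as subject to nonsense-mediated decay, with 37 counts over the 6 libraries, and on a retained-intron transcript with 8.

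CD99 showed the opposite arrangement, with its counts spread evenly over 3 coding transcripts of 1129, 1243 and 1089 bases. They differ at their ends and at short stretches inside the coding sequence. Those inner stretches are printed because the 18-base exon gives the short form of the protein, while the 3-base stretch separates long forms from each other. ENST00000381192 has 3 more bases than ENST00000624481, at chrX:2738200-2738202. ENST00000611428 lacks those bases and has an additional exon of 18 bases, at chrX:2733357-2733374, inside which its annotated coding sequence ends. The coding sequences are 555 bases in ENST00000381192, 552 in ENST00000624481 and 480 in ENST00000611428. Capitals mark the bases that the others lack, with 20 bases before them and, in the lines without the extra exon, 20 after them, plus strand.
ENST00000381192: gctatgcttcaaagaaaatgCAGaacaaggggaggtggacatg
ENST00000624481: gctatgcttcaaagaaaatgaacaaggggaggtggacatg
ENST00000611428: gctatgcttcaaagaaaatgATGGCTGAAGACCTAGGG

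The counts of these 3 transcripts ran almost in parallel. ENST00000381192 had 24, 12 and 12 counts with SGC-CLK-1 and 18, 16 and 19 with DMSO, and ENST00000611428 had 23, 11 and 12 against 18, 16 and 19. They were equal in 4 of 6 libraries and differed by at most 1 count in the others. ENST00000624481, with 20, 11 and 12 against 18, 15 and 18 counts, differed from ENST00000381192 by at most 4. The authors' mapping kept secondary alignments, so a read that matched several of these sequences could be counted on each, and the long and short forms cannot be told apart from these counts. Their log2 fold changes were -0.25, -0.31 and -0.34, with adjusted p-values of 0.749, 0.678 and 0.650. Without DMSO replicate 3 they were -0.105, -0.166 and -0.213, and without DMSO replicate 2 they were -0.445, -0.506 and -0.555. The share of ENST00000381192 was 31.9% ± 3.7 with SGC-CLK-1 and 28.9% ± 1.5 with DMSO (exact permutation test, two-sided, p = 0.3), and the difference of 2.98 percentage points became 1.27 without SGC-CLK-1 replicate 2 and 4.97 without SGC-CLK-1 replicate 3.

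EZH2 had counts on 10 transcripts, of which 3 coding ones passed the filter. They differ by a skipped exon and by the end of another, both in the coding sequence. ENST00000320356 carries 15 more bases at the end of an exon, at chr7:148826454-148826468, than ENST00000460911 and ENST00000350995. ENST00000350995 also lacks the exon of 117 bases at chr7:148832634-148832750. The sequences are given on the minus strand, with the differing bases in capitals between flanks of 20 bases.
ENST00000320356, longer exon end: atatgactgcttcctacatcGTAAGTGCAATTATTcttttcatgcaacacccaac
ENST00000460911 and ENST00000350995, shorter exon end: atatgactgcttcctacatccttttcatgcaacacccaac
ENST00000320356 and ENST00000460911, exon included: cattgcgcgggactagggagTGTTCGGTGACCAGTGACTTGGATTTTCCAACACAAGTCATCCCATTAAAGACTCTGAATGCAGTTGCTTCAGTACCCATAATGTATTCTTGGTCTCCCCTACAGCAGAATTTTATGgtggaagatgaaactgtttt
ENST00000350995, exon skipped: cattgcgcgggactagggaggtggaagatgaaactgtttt

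The 3 transcripts had similar counts, differing by at most 6 in a library. Of the 25-base words of ENST00000320356 and ENST00000350995, 96.7% and 98.9% occur in ENST00000460911. A read could therefore be counted on more than 1 of them, and the 3 forms cannot be told apart from these counts. ENST00000460911 had 17, 9 and 12 counts with SGC-CLK-1 and 13, 21 and 11 with DMSO (log2 fold change -0.31, adjusted p = 0.694). The corresponding counts of ENST00000320356 were 15, 9 and 14 against 12, 19 and 7 (-0.06, adjusted p = 0.960). The exon-skipping ENST00000350995 had 14, 10 and 11 against 11, 15 and 7 (0.02, adjusted p = 0.988). The share of ENST00000460911 was 19.1%, 17.3% and 17.4% with SGC-CLK-1 and 23.2%, 23.3% and 20.0% with DMSO, and these did not overlap. They rest on 9 to 21 counts of this transcript per library. The fraction of all genes whose main transcript share lay apart was not computed. The means of 17.9% ± 1.0 and 22.2% ± 1.9 gave p = 0.1 in the exact two-sided permutation test, the smallest that 3 against 3 libraries allow, and 0.4 after adjustment over the 4 genes compared. In the usage test over all transcripts (diffSpliceDGE), this transcript's change relative to its gene was -0.15 log2 units (adjusted p = 1). Transcripts of EZH2 annotated as subject to nonsense-mediated decay, 2 in number, made up 18.7% ± 5.6 of its counts with SGC-CLK-1 and 17.8% ± 2.2 with DMSO.

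**Figure D4:**
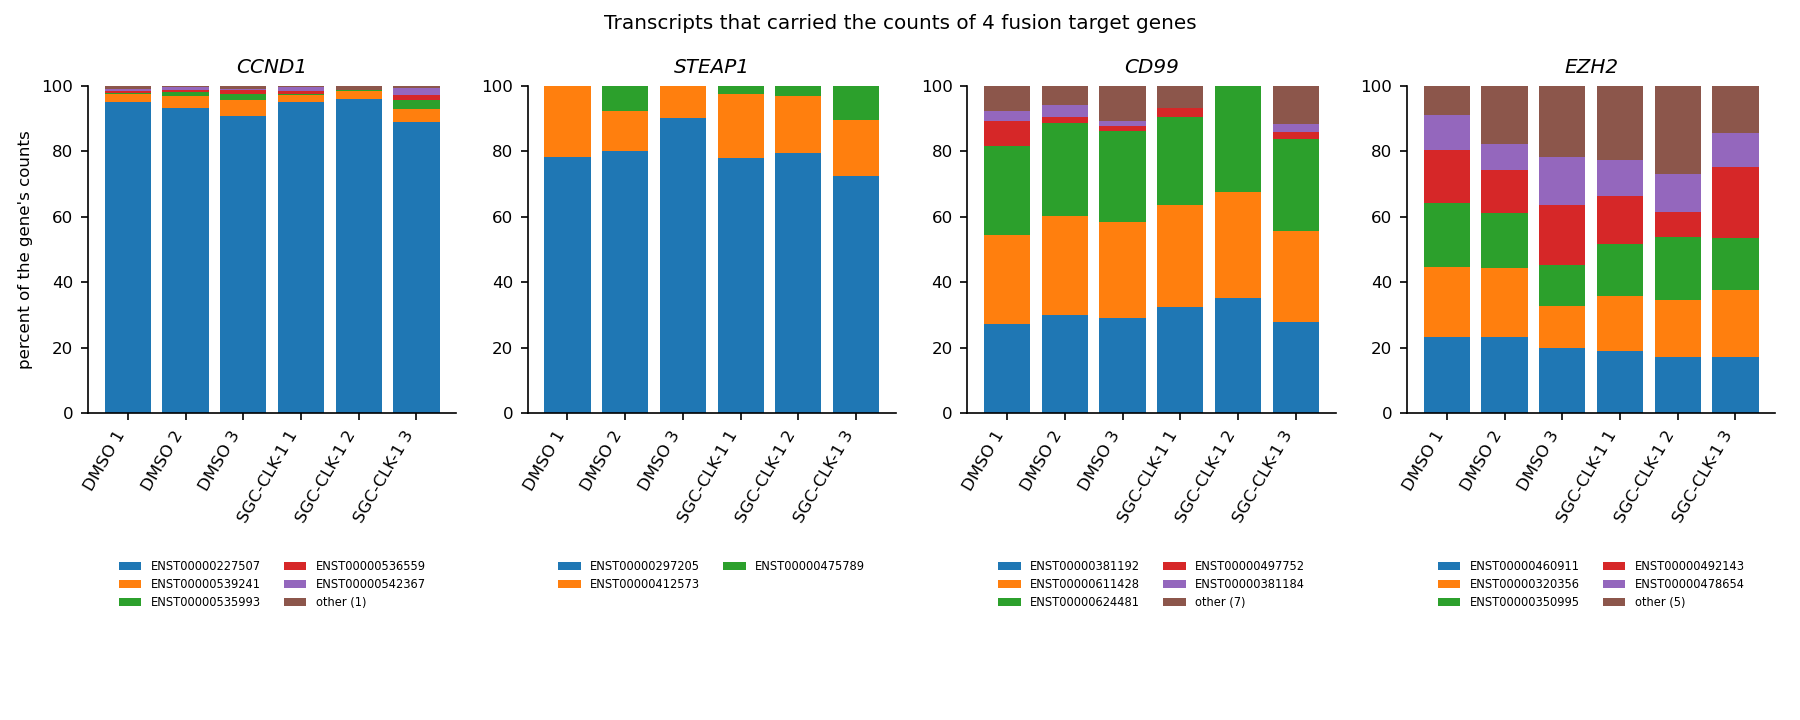
Share of each gene's counts (percent, stacked to 100) on its 5 most abundant transcripts and on the others together, in each of the 3 DMSO and 3 SGC-CLK-1 libraries, for CCND1, STEAP1, CD99 and EZH2. A single transcript fills most of the CCND1 and STEAP1 bars, while the CD99 and EZH2 bars are divided among several.

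Transcript usage could be tested for CD99 and EZH2, which had 3 transcripts past the filter each, and neither was called (Simes adjusted p = 1 for both, unadjusted p = 0.977 and 0.924), nor by the F test of usage. In all, 5 of 1805 genes were called in that test (0.277%). CCND1 and STEAP1 had 1 transcript past the filter and could not enter it. Within each of the 4 genes, the summed shares of retained-intron and of nonsense-mediated-decay transcripts did not separate the groups. Single transcripts of these classes did so in CPM on few counts. ENST00000483012 of EZH2 was higher with SGC-CLK-1 (3, 3 and 2 against 1, 2 and 1). ENST00000645950 of CD99 was lower (0, 0 and 0 against 2, 1 and 1). So was a coding transcript of CD99, ENST00000381184 (0, 0 and 1 against 2, 2 and 1). How many of all transcripts with so few counts lay apart was not computed, so these are counts only.

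The 6 members below the filter are given as counts. PRKCB encodes protein kinase C beta, which acts downstream of diacylglycerol and calcium. It had 13, 9 and 7 counts with SGC-CLK-1 and 12, 9 and 5 with DMSO, with means of 21.0 CPM ± 3.3 and 19.8 CPM ± 8.0 (exact permutation test, two-sided, p = 0.8). Its main transcript, ENST00000643927 (17 exons, chr16:23835983-24220611), held 37 of the 55 counts, 9, 8 and 5 with SGC-CLK-1 and 6, 6 and 3 with DMSO. The groups overlapped.

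NR0B1, an orphan nuclear receptor also called DAX1 and the classical repeat-driven target of the fusion, had 4, 2 and 4 counts with SGC-CLK-1 and 1, 6 and 3 with DMSO. Both groups came to 10 counts in all, at 7.41 CPM ± 2.88 and 7.30 CPM ± 4.58 (exact permutation test, two-sided, p = 1). The full-length transcript ENST00000378970 held 17 of the 20. The groups overlapped, and activity of the repeat printed above was not measured.

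LIPI, a phospholipase of testis that acts on phosphatidic acid and the other gene with a repeat close by, had 6, 11 and 2 counts with SGC-CLK-1 and 6, 6 and 0 with DMSO. Libraries ranged from 0 to 30.3 CPM, and the group means of 14.9 CPM ± 13.5 and 8.62 CPM ± 7.61 overlapped (exact permutation test, two-sided, p = 0.7). Its top transcript, ENST00000536861, had only 11 counts over the 6 libraries, and the next, ENST00000614229, had 10 and equalled it in 5 libraries.

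GLI1, a zinc finger transcription factor that ends the Hedgehog pathway, was seen only in the treated libraries, with 7, 4 and 7 counts against 0, 0 and 0. These sums were built from very few molecules. The transcripts ENST00000228682 and ENST00000543426 each had 2, 1 and 2 counts, equal in all 6 libraries, and 99.3% of the 25-base words of the latter occur in the former, so a read could be counted on both. A count of 3 or fewer per library is at the floor used here. The gene sums with SGC-CLK-1 lay above it, but each single transcript and all DMSO libraries did not, so no fold is given. The exact two-sided permutation test gave p = 0.1, the smallest it can give, and 8.29% of all genes below the filter with a count had groups that did not overlap. That share also covers genes with counts in too few libraries for their groups to lie apart. When every gene with a count was tested without a filter, GLI1 had an adjusted p of 0.0475, the single call among the members under any setting tried, and it rested on these counts. In that setting 169 of 18776 genes were called (0.9%).

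PPP1R1A, an inhibitor of protein phosphatase 1, had 1 count, in SGC-CLK-1 replicate 1. NKX2-2, a homeobox repressor also used in diagnosis, had none among 2715216 counts in all libraries, which allows a level of up to 1.1 CPM (3 counts, counting error only). Neither gene can be compared between the groups.

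The fusion partners themselves were looked at with the same counts. FLI1 had 0 counts in all 6 libraries, with the same limit of 1.1 CPM. ERG had 88, 24 and 68 counts with SGC-CLK-1 and 38, 52 and 38 with DMSO, or 132.0, 66.2 and 182.3 CPM against 91.3, 99.3 and 101.9 CPM. The treated libraries lay on both sides of the DMSO libraries (log2 fold change 0.31, 95% interval -0.39 to 1.00, adjusted p = 0.737), and without SGC-CLK-1 replicate 3 the value was -0.02. The ERG counts were spread over 10 overlapping transcripts, the highest of them, ENST00000288319, with 47 counts in all. Reads across a fusion junction were not analysed here, so counts on ERG or EWSR1 do not separate the fusion from the unfused gene.

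EWSR1 had 185, 75 and 87 counts with SGC-CLK-1 and 78, 87 and 42 with DMSO, which were 277.5, 206.7 and 233.2 CPM against 187.3, 166.2 and 112.6 CPM. All treated libraries lay above all DMSO libraries, as the groups of 19.7% of all genes tested lay apart, with a log2 fold change of 0.55 (95% interval 0.04 to 1.07, unadjusted p = 0.036), but the adjusted p of 0.318 did not pass. Of 7 partner and related genes, 4 could be tested and none was called, by edgeR or DESeq2, with EWSR1 alone at an unadjusted p under 0.05, which 13.9% of all genes had.

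**Figure D5:**
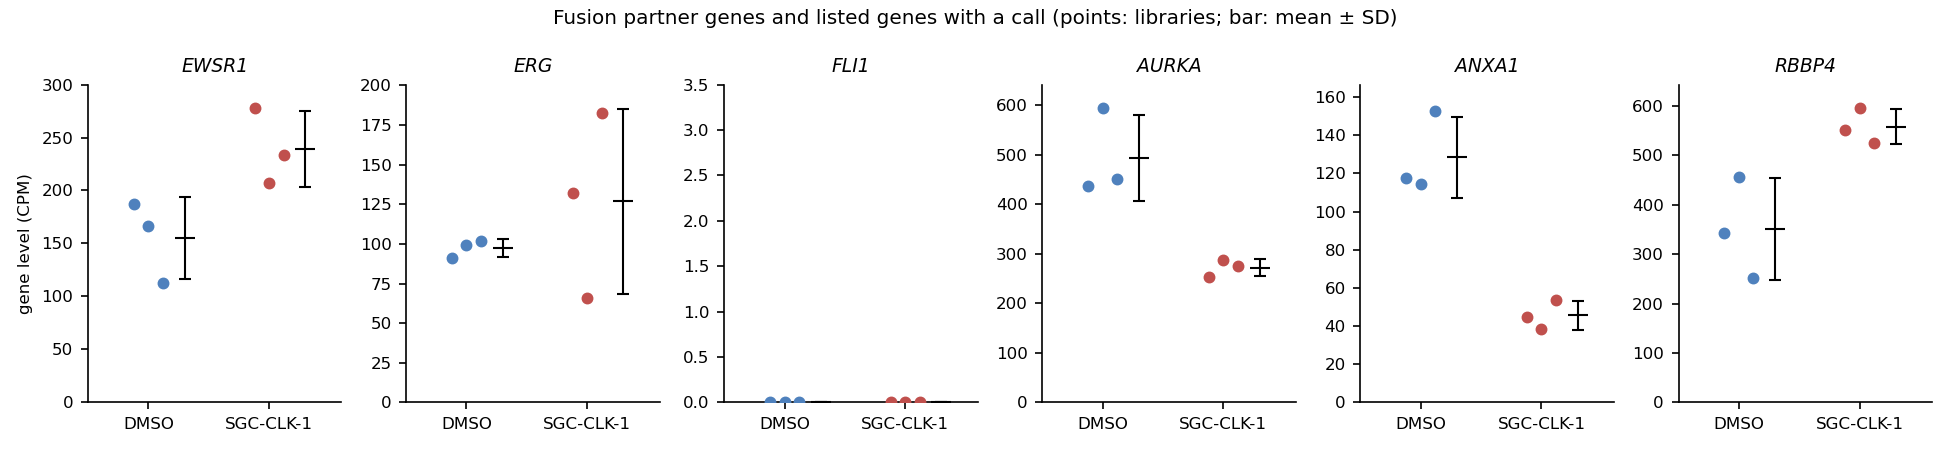
Gene level in CPM (vertical axis, from 0, with its own scale in each panel) of the fusion partner genes EWSR1, ERG and FLI1 and of AURKA, ANXA1 and RBBP4 in each library, with the mean ± SD of each group (n = 3). The groups do not overlap for EWSR1, AURKA, ANXA1 and RBBP4, and FLI1 is at 0 throughout.

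Other genes described as activated by the fusion were taken from a list. Of 23, 21 had a count, 14 were tested and none was called, with a median log2 fold change of -0.04. Of the 14, 6 were positive and 8 negative. At an unadjusted p under 0.05 there were 2, AURKA and ID2, both lower, a share near the 13.9% of all genes. The DESeq2 Wald test called 1 of the 14, AURKA (adjusted p = 0.0052), where it called 107 of 6344 genes. With edgeR, AURKA was also called with no filter (adjusted p = 0.0155), a setting that called 169 of 18776 genes. It was called too with at least 10 counts in every library (adjusted p = 0.0325), where 64 of 4353 genes were. It was not called in the other 10 of 13 alternatives, with adjusted p-values of 0.092 to 0.245 when single libraries were left out, and 0.163 at a log2 fold change of -0.68 with its most abundant transcript alone. Named after their values were seen, ID2, an inhibitor of differentiation factors, was at -0.58 (adjusted p = 0.350), the transcription factor SOX6 at 0.62 (adjusted p = 0.373) and MYC at 0.59 (adjusted p = 0.378). AURKA, the mitotic kinase Aurora A, had 169, 104 and 103 counts with SGC-CLK-1 and 182, 311 and 168 with DMSO, a log2 fold change of -0.94 (95% interval -1.38 to -0.51, adjusted p = 0.054). Of its 7 tested transcripts, ENST00000395915 passed the transcript test (22, 11 and 9 counts against 27, 44 and 20, log2 fold change -1.19, adjusted p = 0.025). Over the list, 1 of 36 tested transcripts passed, beside 3.95% of all transcripts.

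Among 15 genes described as repressed by the fusion, 13 had a count and just 1 was high enough to test, ANXA1, which encodes the phospholipid-binding annexin A1. ANXA1 was lower with SGC-CLK-1, with 30, 14 and 20 counts against 49, 60 and 57, and the groups were far apart (45.7 CPM on average against 128.4 CPM). Its log2 fold change was -1.56 (95% interval -2.19 to -0.92, adjusted p = 0.0477). Both of its tested transcripts passed too (-1.43 and -1.37, adjusted p = 0.015 and 0.019), where 3.95% of all transcripts did. Their counts were nearly equal, so they are not separate evidence. When any 1 library was left out, the log2 fold change stayed between -1.68 and -1.40 while the adjusted p rose to between 0.0517 and 0.2445. The call was kept in the 7 other alternatives, with an adjusted p of 0.0058 in DESeq2. A list with 1 tested gene carries no statement about repressed targets as a group.

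The neighbours of EZH2 in PRC2 were well covered, with 8 of 9 other subunits or partners tested. None was called as a gene by edgeR, nor among the 7 to which DESeq2 gave an adjusted p. With the most abundant transcript in place of the sum, edgeR called RBBP4 (log2 fold change 0.72, adjusted p = 0.031). That setting called 147 of 3688 genes. Of the 8, 1 (RBBP4) had an unadjusted p under 0.05, near the 13.9% of all genes, 5 were positive and 3 negative, and their median log2 fold change was 0.26. RBBP4, a histone-binding subunit, had 368, 216 and 196 counts with SGC-CLK-1 and 143, 239 and 94 with DMSO (log2 fold change 0.59, 95% interval 0.12 to 1.06, adjusted p = 0.235). Its transcript ENST00000373493 passed the transcript test, with 340, 186 and 185 counts against 122, 208 and 81 (0.74, adjusted p = 0.039). Over these 8 genes, 1 of 18 tested transcripts passed, beside 3.95% of all transcripts.

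Partners of CCND1 and GLI1 were mostly low. Of 5 cyclin D relatives and partners, only CDK4 was tested, with a log2 fold change of -0.32 (95% interval -0.78 to 0.15, adjusted p = 0.562). It was -0.55 without SGC-CLK-1 replicate 1 and -0.14 with the most abundant transcript alone. RB1, the substrate of the cyclin D kinases, averaged 11.7 CPM, and CDK6 had no count. Of 6 other Hedgehog pathway genes, only the receptor PTCH1 was tested (0.06, 95% interval -0.83 to 0.95, adjusted p = 0.970), and the most abundant untested gene, GLI2, had overlapping groups (9.0, 24.8 and 18.8 CPM against 33.6, 42.0 and 21.5 CPM).

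Relatives of the members by family were tested in 4 of 13 cases and none was called by edgeR or DESeq2, with STEAP2 and CD99L2 at an unadjusted p under 0.05, beside 13.9% of all genes. STEAP2, the most abundant, had 668, 394 and 579 counts with SGC-CLK-1 and 668, 763 and 574 with DMSO (log2 fold change -0.42, adjusted p = 0.359, and -0.64 without SGC-CLK-1 replicate 3). CD99L2 went the other way from CD99, at 0.96 (95% interval 0.14 to 1.78, adjusted p = 0.278, and 0.64 without SGC-CLK-1 replicate 1), and PRKCI, an atypical protein kinase C, was at 0.54 (adjusted p = 0.418, and 0.34 without DMSO replicate 3). These values missed the threshold, and differences between relatives were not tested.

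Of the listed genes below the filter, 47 had a count, and the groups of 7 did not overlap in CPM, 5 higher and 2 lower with SGC-CLK-1. Over all 12432 genes below the filter with a count, 1031 did not overlap (8.29%), and some of the 12432 had counts in too few libraries to lie apart. These genes are named here after their values were seen, and each rests on few counts. Among relatives of CCND1, cyclin D2 (CCND2) had 10, 9 and 3 counts with SGC-CLK-1 against 2, 2 and 2 with DMSO, and cyclin D3 (CCND3) had 0, 0 and 1 against 3, 4 and 4. In the Hedgehog list, the transcription factor GLI3 had 16, 7 and 5 against 3, 4 and 4, and SUFU, an inhibitor of GLI proteins, had 9, 4 and 4 against 2, 1 and 2. PHLDA1, from the list of repressed genes, had 4, 8 and 6 against 2, 2 and 2. Of the activated genes, GSTM4, a glutathione transferase, had 4, 2 and 4 against 2, 0 and 0, and HOXD13, a homeobox factor, had 5, 4 and 3 against 13, 11 and 8.

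The labelled cell type was set against defining markers. Of 4 Ewing sarcoma markers, CD99 was well counted, NR0B1 was at 1 to 6 counts per library, and NKX2-2 and FLI1 were at 0. Summed over these markers, the level ran from 99.2 to 182.3 CPM. Leukocyte markers were counted for 3 of 5, summing to between 15.3 and 32.2 CPM, with PTPRC the highest at 3 to 12 counts per library, and CD3E and CD68 at 0. Epithelial markers were counted for 4 of 5, summing to between 32.2 and 76.4 CPM, with KRT8 leading (log2 fold change -0.70, adjusted p = 0.554, -0.24 without DMSO replicate 2 and -1.13 without SGC-CLK-1 replicate 1), CDH1 at 1 to 7 counts per library and KRT19 at 0. Fibroblast and mesenchymal markers were counted for 5 of 5, from 38.4 to 96.5 CPM in sum, with DCN leading (0.50, adjusted p = 0.682, 0.068 without DMSO replicate 1 and 0.92 without DMSO replicate 3) and LUM next. Skeletal muscle markers reached at most 13.5 CPM in sum, from MYH3 and 1 count of DES, with MYOD1 and MYOG at 0. Their part in the values above was not tested.

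The genes whose profile over the 6 libraries lay closest to that of CCND1, the most counted member, included MFSD14B and RPL7P9. After centring log2 CPM, they departed from CCND1 by a root mean square of 0.055 and 0.066 log2 units, out of 6343 genes compared. Neither was called, with log2 fold changes of -0.42 and -0.54, and closeness over 6 libraries is a description only.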

How the data were processed

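Per the paper's methods, reads were mapped to human transcripts (hg38) with minimap2, keeping secondary alignments, and UMIs were deduplicated. The authors deposited the resulting raw counts for each transcript, with each library in a file of its own. The submitters' processing notes name minimap2 2.22 and featureCounts 2.0.1. The library protocol in the labels names an Illumina kit, whereas the methods describe nanopore reads for this transcript mapping, and which deduplication made these counts is not given in the sources used here. The common biological coefficient of variation was 0.169 for transcripts and 0.244 for genes.

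Transcripts were paired with genes by identifier without version in GENCODE 44 (86362 of 93530 matched, 48 of 51 member transcripts in the same version), and gene counts were sums over transcripts. Low counts were filtered (filterByExpr, minimum count 10, total 15), libraries scaled by TMM and differences tested by the quasi-likelihood method of edgeR 4.0.16 under R 4.3.3, with p-values adjusted after Benjamini-Hochberg at 0.05 and 95% intervals, and usage with diffSpliceDGE. DESeq2 1.42.0 was an alternative. CPM used unscaled library totals, and the count of genes whose groups do not overlap used TMM-scaled ones. Exact permutation tests used Python 3.11.15 and scipy 1.17.1. The tests were checked on simulated data. All members were named, with their tested and most abundant transcripts. Of each other list, the genes with a call were named, or else the 2 most abundant and the 2 with the smallest p, and EWSR1, FLI1 and ERG always. A few genes that this rule would name are not reported here. The members and lists were chosen with earlier results of these data known. Other scalings and filters, DESeq2, a replicate block and leaving out each library were the alternatives, and the most abundant transcript in place of the sum was added after seeing the data. All other samples were left out, being other experiments.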

Additional observations from a re-analysis of the deposited data

How the results depend on the processing

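No member transcript among those tested was called under any of 12 alternatives. Of the 8, only 5 were tested with at least 10 counts in every library, and only 2 had an adjusted p in DESeq2. Of the member genes only GLI1 was called, 1 call with no filter on low counts (169 of 18776 genes called). CCND1, CD99 and STEAP1 kept a negative log2 fold change and stayed above the threshold in all 13 alternatives, between -0.59 and -0.35 for CCND1, -0.72 and -0.27 for CD99 and -0.46 and -0.157 for STEAP1. The -0.27 of CD99 came from the most abundant transcript in place of the sum, which also moved EZH2 to -0.34. EZH2 changed sign with scaling by library size only (0.0147) and ranged from -0.22 to 0.037 with single libraries left out. That scaling moved the median of all genes to 0.08 and split the gene calls into 20 higher and 8 lower. Of 15 genes called, the count was 28 with library size only, 169 with no filter, 64 with at least 10 counts in every library, 36 with the replicate block, 107 with DESeq2, 147 with the most abundant transcript in place of the sum, and 1 to 21 with single libraries left out. Of 310 transcripts called, the count was 162 with no filter, 173 with at least 10 counts in every library, 113 with DESeq2 and 81 to 363 with single libraries left out. Of 5 genes called for usage, it was 2 with no filter, 1 with at least 10 counts in every library and 1 to 5 with single libraries left out. The replicate block called 427 transcripts and 4 genes for usage. Same-numbered libraries had correlations of deviations of 0.059, 0.093 and -0.0018, so the numbers were not taken to pair the samples, and not every library correlated best with its own number.

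AURKA passed the threshold with no filter, with at least 10 counts in every library and in DESeq2, and RBBP4 with the most abundant transcript in place of the sum. Single transcripts of EZH2 changed sign on small values, and ENST00000460911 ranged from -0.41 to -0.15 with libraries left out. ENST00000350995 came to -0.0096 with no filter, and with libraries left out it ranged from -0.14 to 0.21, and ENST00000320356 from -0.27 to 0.20. With single libraries left out, PTCH1 ranged from -0.10 to 0.26 and ERG from -0.021 to 0.60. The difference in the CCND1 main transcript share ranged from -1.04 to 2.52 percentage points, that of STEAP1 from -8.54 to -2.51 and that of CD99 from 1.27 to 4.97. The NR0B1 difference was -0.33 CPM with TMM-scaled libraries and -2.34 to 2.19 CPM with libraries left out, that of PRKCB ranged from -1.98 to 5.72 CPM and that of LIPI from -1.44 to 11.03 CPM. The share of STEAP1's main transcript among coding ones is fixed at 100% by its single coding transcript. The causes were not tested. With 1.5 to 2.76 CPM per count, depth limits the 6 lowest members most.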
